A study of Mus musculus with 8 samples.

Results

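Livers of Abcb4 knockout mice that had received the bile acid norUDCA for 4 weeks were set against livers of wild-type mice, with 2 arrays in each group out of 8 arrays in the series. The genotype of the untreated control group (WT) was wild type and that of the treated group Abcb4 KO. All mice were FVB/N males aged 3 months, and total RNA of the liver was hybridised to a 1-colour array read by chemiluminescence. The treatment length is that of the sample labels: the assay names inside the files of the treated group give 14 days instead, and the difference was not settled here. Nothing in the labels ties the 2 arrays of a group to separate animals, and every p-value below therefore reflects only how far these arrays differed, possibly for technical reasons. Of 33012 gene probes, 16728 were tested and 13715 are described, namely those with a signal at least 3 times the noise of the spot ("detected") on both WT arrays or on both 4-week arrays. A gene name could be given to 132 of the described probes (131 genes), so most of the probes below are counted and not named. Arrays of untreated knockouts (KO, n = 2) and of knockouts given norUDCA for 3 days (n = 2) entered the same fit and are quoted for comparison.

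Abcb4 is the canalicular transporter that moves phosphatidylcholine from hepatocytes into bile. Without it, bile acids in bile are not held in mixed micelles with phospholipid and injure the epithelium of the bile ducts, and the knockout mouse is used as a model of sclerosing cholangitis. norUDCA is ursodeoxycholic acid with a side chain shortened by a carbon, which is poorly conjugated and can be taken up again by bile duct cells. The comparison with WT asks how far the liver transcriptome of treated knockouts still lay from that of normal liver. It contains the effect of the genotype and of the drug together, and WT mice given norUDCA were not analysed here.

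The WT arrays were dimmer than the 4-week arrays. Gene probes were detected at 33.3% and 41.4% on the WT arrays and at 46.4% and 47.1% on the 4-week arrays, and the median signal of the 129 positive control spots was 1691 and 2062 against 7003 and 6269. The other 4 knockout arrays had control medians from 6104 to 7913, so WT stood apart from all 6 knockout arrays. Replicates correlated at r = 0.935 in WT and 0.976 after 4 weeks, across tested probes, which are not independent replicates. Each of these measures is aligned with the groups, so a difference in how the arrays were run and a difference between the livers cannot be told apart. Mup1, a major urinary protein of hepatocytes and a defining liver marker, had a log2 signal of 20.63 and 20.04 in WT. It had 19.79 and 20.13 after 4 weeks, so it was bright on all 4 arrays and its groups overlapped. Quantile normalization gives every array the same set of values, so this overlap of a very bright probe is no check on the dimmer WT arrays. Abcb4 was not analysed here, and the genotype was not checked against it. RNA of whole liver cannot tell fewer cells of a type from less RNA per cell.

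The named genes that differed from WT after 4 weeks were Dio1, Hsd3b4, Sult5a1 and 4930433I11Rik, which were lower, and Wfdc2, Plin3, Tcte3 and Aldh3a2, which were higher. Of the tested probes, 2.27% passed an adjusted p of 0.05 by limma (379 of 16728), with 266 higher (1.59%) and 113 lower (0.676%) after 4 weeks than in WT. Among the described probes 359 passed (2.62%). Their differences spanned a wide range, from a fall of 9.43 to a rise of 6.28 on the log2 scale, and the smallest one that passed was 1.03. Of the 257 rises among them, both untreated KO arrays lay above both WT arrays on 231, and both 3-day arrays on 252. Of the 102 falls, both KO arrays lay below both WT arrays on 101, and both 3-day arrays on 100. The same WT arrays enter these counts and the calls, so the counts are a description. The median difference of the described probes was 0.10 log2, and 20.3% of them differed by more than 1 log2 in either direction. Of the named described probes, 4 were higher and 3 were lower past the threshold (5.3%). The named probes differed by more than 1 log2 in 39 of 132 cases and had a median of 0.10. All counts rest on both 4-week arrays and on the other groups for the estimate of the spread: the count was 0 without either 4-week array and 0 in a limma fit of the 4 compared arrays alone, where 3108 probes had an unadjusted p under 0.05 (3553 in the fit of 8 arrays, 21.2%). It was 38 without either 3-day array and 1265 without WT replicate 2. The split into 266 higher and 113 lower became 847 and 135 when arrays were scaled to a common median (the median over all tested probes was then 0.61 log2), and 128 and 86 with cyclic loess. With 2 arrays against 2, an exact permutation test of a single gene cannot go below p = 0.33 (two-sided), so no such test is given.

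**Figure D1:**
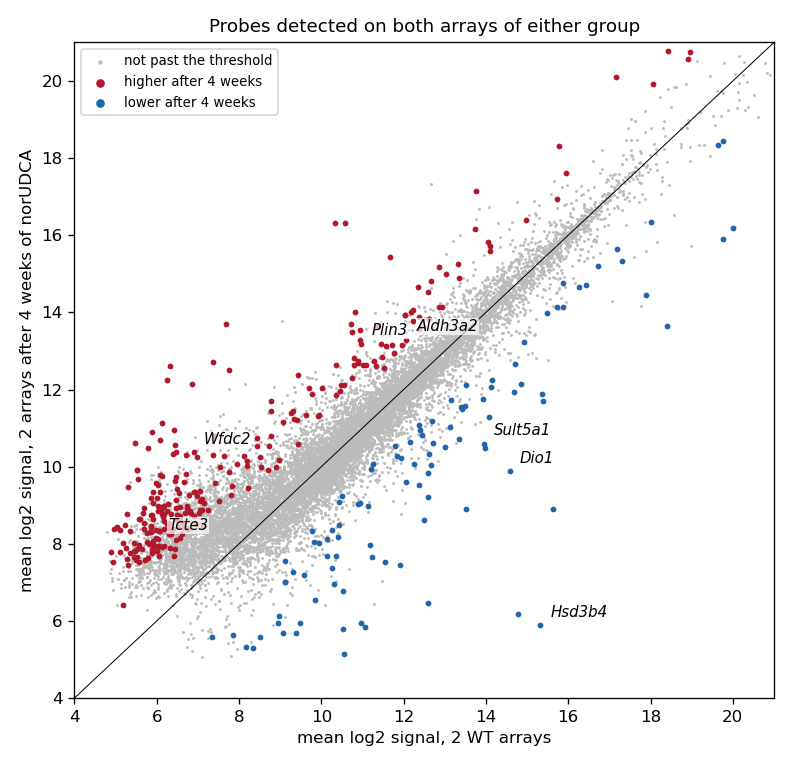
Mean log2 signal of each described probe on the 2 WT arrays (x axis) and on the 2 arrays after 4 weeks of norUDCA (y axis), with probes past an adjusted p of 0.05 (limma) in red where higher and in blue where lower. The red points are dense at the dim end of the WT axis, and Hsd3b4 and Dio1 lie far below the diagonal.

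The 3 described named genes that fell were Dio1, Hsd3b4 and Sult5a1, enzymes of thyroid hormone activation, steroid metabolism and sulfate conjugation. Dio1, the deiodinase that converts thyroxine to active triiodothyronine in the liver, had a log2 signal of 14.35 and 14.81 in WT and of 9.84 and 9.93 after 4 weeks. Both 4-week arrays lay far below both WT arrays, and the replicates of each group were within 0.5 log2 of each other. The fall was 4.70 ± 0.29 on the log2 scale (SE of the fit, 25.9-fold, adjusted p = 0.0086, limma). Among the named genes this was the call with the smallest adjusted p, and it was lost in 3 of 21 alternatives (adjusted p up to 0.10): without either 4-week array and in the fit of 4 arrays.

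Hsd3b4, a member of the 3β-hydroxysteroid dehydrogenase family that acts on steroid hormones, lay at 15.54 and 15.11 log2 in WT, where both arrays detected it, and at 5.62 and 6.17 after 4 weeks, where neither did. The gap between the groups was the widest of any named gene, with a mean at least 691-fold lower (adjusted p = 0.027, limma). That bound is nominal, since it sets the WT mean against the measured signal of spots that are within their own noise. The gene has close paralogs, and the probe cannot be assumed to tell them apart. Untreated KO lay at 14.28 and 11.23, and the 3-day arrays at 6.01 and 8.67.

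Sult5a1, a cytosolic sulfotransferase of the family that conjugates small molecules, had 13.66 and 14.25 log2 in WT and 10.12 and 11.07 after 4 weeks. The groups did not overlap, although the 4-week arrays lay nearly 1 log2 apart. It fell by 3.35 ± 0.56 (SE, 10.2-fold, adjusted p = 0.048, limma), just inside the threshold, and the call was lost in 13 of 21 alternatives, among them leaving out either WT array (0.083 and 0.066) and cyclic loess normalization (0.055). In untreated KO, Sult5a1 had 12.78 and 12.09 log2. The transcript 4930433I11Rik, whose product has no role given here, also passed (adjusted p = 0.023, limma). It lay at 8.47 and 7.94 in WT and at 6.05 and 5.95 after 4 weeks. Only WT replicate 1 detected it, so it is not among the described probes and no fold is given.

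The 4 named genes that rose belong to epithelial secretion, lipid storage, aldehyde metabolism and dynein. Wfdc2, a secreted protein with whey acidic protein domains made by epithelia, had 6.88 and 6.93 log2 in WT, where it was not detected, and 10.40 and 10.35 after 4 weeks, where both arrays detected it. The replicates of each group were nearly identical, and the 4-week mean was nominally 11.1-fold higher (adjusted p = 0.027, limma). The WT spots were at 0.65 and 0.91 times their noise, so this fold is no strict lower bound. Untreated KO stood at 9.20 and 10.19, and the 3-day arrays at 9.79 and 8.78.

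Plin3, a perilipin that coats lipid droplets, was detected on all arrays and had 11.12 and 10.82 log2 in WT and 13.22 and 13.16 after 4 weeks. It rose by 2.22 ± 0.31 (SE, 4.66-fold, adjusted p = 0.034, limma), and in untreated KO it had 12.76 and 11.90. Aldh3a2, the fatty aldehyde dehydrogenase that oxidises long-chain aldehydes to fatty acids, had 12.04 and 12.10 in WT and 13.35 and 13.23 after 4 weeks. Its replicates lay close together in both groups. It rose by 1.23 ± 0.20 (SE, 2.34-fold, adjusted p = 0.044, limma), the smallest change among the named genes that passed. In untreated KO, Aldh3a2 had 12.36 and 12.03. Pemt, which makes phosphatidylcholine by methylating phosphatidylethanolamine and so supplies the lipid that Abcb4 transports, had 15.19 and 15.28 in WT and 15.77 and 15.52 after 4 weeks. Its groups did not overlap, yet the difference of 0.41 ± 0.19 (SE) did not pass (adjusted p = 0.28, limma).

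Tcte3, a dynein light chain known from the testis, had 6.24 and 5.84 log2 in WT and 8.39 and 7.88 after 4 weeks, detected on both 4-week arrays and on neither WT array. The 4-week mean was nominally at least 3.85-fold higher (adjusted p = 0.026, limma), with the WT spots at 0.34 and 0.58 times their noise. In untreated KO, Tcte3 had 6.84 and 6.72, detected on neither array. The calls of Wfdc2, Plin3, Tcte3, Hsd3b4 and 4930433I11Rik were each lost in 8 or 9 alternatives, and that of Aldh3a2 in 11 of 21 (adjusted p up to 0.24 over these 6 genes, limma). All 8 calls were lost without either 4-week array, and all but that of Dio1 also without either 3-day array. Those of Hsd3b4, Sult5a1, Wfdc2, Plin3 and Aldh3a2 were lost without WT replicate 1, those of Sult5a1 and Aldh3a2 without WT replicate 2, and that of Sult5a1 without either KO array. No alternative turned the direction of any of the 8 named genes that passed.

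**Figure D2:**
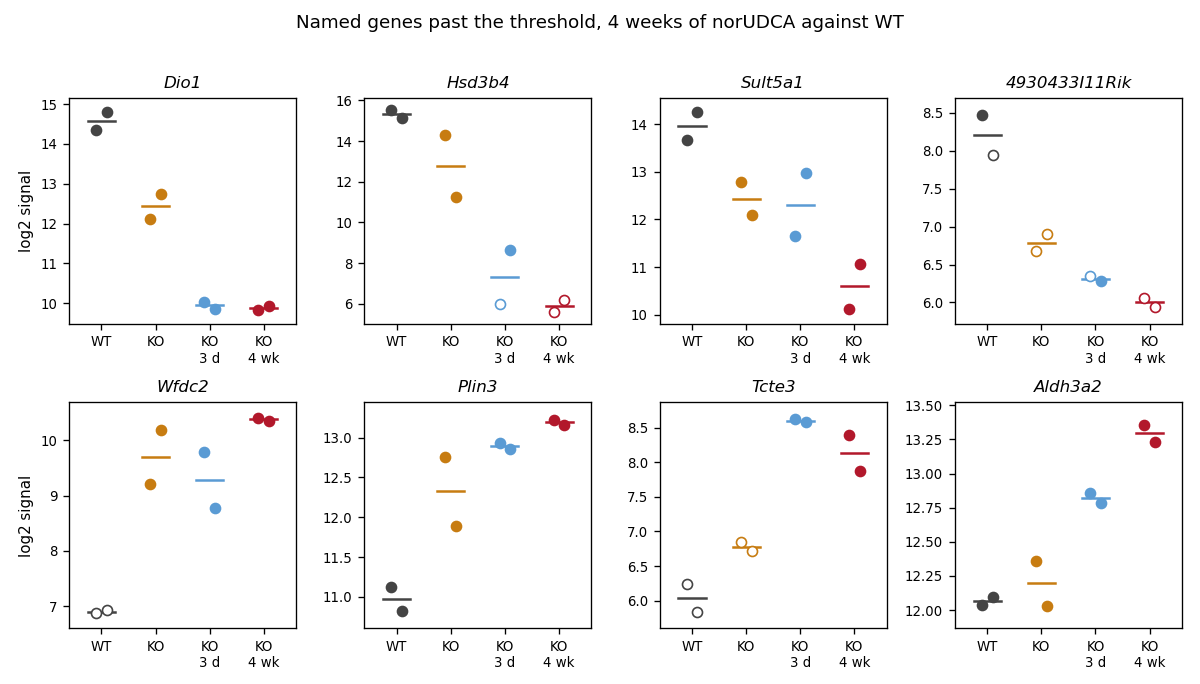
Log2 signal (y axis) on each array of the 4 groups (x axis) for the 8 named genes past the threshold after 4 weeks against WT; filled points are arrays that detected the probe, open points arrays that did not, and bars are means of 2 arrays. The WT points lie apart from the 4-week points in each panel, and Hsd3b4 drops from above 15 to about 6.

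Most probes that passed carry a design identifier and no name, and 6 of these, the 3 with the largest rises and the 3 with the largest falls among unnamed probes, are given here. The probe of mCG15953.2 rose from 7.22 and 5.44 log2 on the WT arrays, not detected, to 12.88 and 12.33 after 4 weeks (at least 60.7-fold, adjusted p = 0.023, limma). That of mCG8002.1 went from 5.70 and 6.79 to 12.09 and 12.40 (at least 64.1-fold, adjusted p = 0.017, limma), and that of mCG21456.1, detected on all 4 arrays, from 8.38 and 7.0 to 13.59 and 13.82 (64.8-fold, adjusted p = 0.017). On each of these probes the 4-week arrays lay more than 5 log2 above both WT arrays. The largest falls among unnamed probes, each smaller than that of Hsd3b4, were those of mCG20398.1, from 14.80 and 14.74 to 6.23 and 6.13 (at least 386-fold), of mCG10287, from 15.82 and 15.46 to 9.35 and 8.47 (106-fold), and of mCG13400.1, from 12.78 and 12.42 to 6.61 and 6.32 (at least 70.3-fold). Their adjusted p-values by limma were 0.026, 0.023 and 0.0086. The lower bounds on fold given for these unnamed probes are nominal, as for Hsd3b4. Untreated KO lay at 10.29 and 10.45 for mCG15953.2, at 6.04 and 7.14 for mCG8002.1 and at 8.36 and 8.37 for mCG21456.1. For the 3 falls it lay at 13.59 and 10.71 (mCG20398.1), 14.20 and 12.15 (mCG10287) and 7.38 and 8.39 (mCG13400.1). All 6 calls were lost in the fit of 4 arrays and without either 4-week array, those of mCG15953.2, mCG20398.1 and mCG10287 also without either 3-day array, and that of mCG20398.1 without WT replicate 1. All 6 kept their direction in each alternative run.

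The list of fatty acid oxidation and fasting had 2 tested members, of which Aldh3a2 rose, as given above, and Fgf21 did not pass. The glucose list had 1, G6pc, which did not pass. Fgf21, the hepatic hormone of fasting, had 12.58 and 9.98 log2 on the WT arrays, both detected, and 6.17 and 6.70 after 4 weeks, where 1 array detected it. The groups were far apart, but the WT arrays differed from each other by 2.6 log2, and the difference of -4.84 ± 0.96 (SE) missed the threshold (adjusted p = 0.067, limma). Without WT replicate 2, the lower WT array, it was -6.14 and passed (adjusted p = 0.019, limma), and it passed in 4 other alternatives. Untreated KO lay at 5.96 and 6.45 log2 for Fgf21, detected on neither array. G6pc, the phosphatase that releases glucose from the liver, had 16.15 and 15.76 in WT and 14.59 and 13.94 after 4 weeks. Its difference was -1.69 ± 0.36 (SE, adjusted p = 0.075, limma). Paqr9, a membrane protein of the progestin and adipoQ receptor family, had 15.40 and 14.05 in WT and 13.52 and 13.50 after 4 weeks. Its mean difference of -1.22 was smaller than the gap of 1.35 between the WT arrays. Prr18, a proline-rich protein among the brightest named probes, had 15.66 and 14.93 in WT and 15.90 and 17.00 after 4 weeks and did not pass (adjusted p = 0.22).

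**Figure D3:**
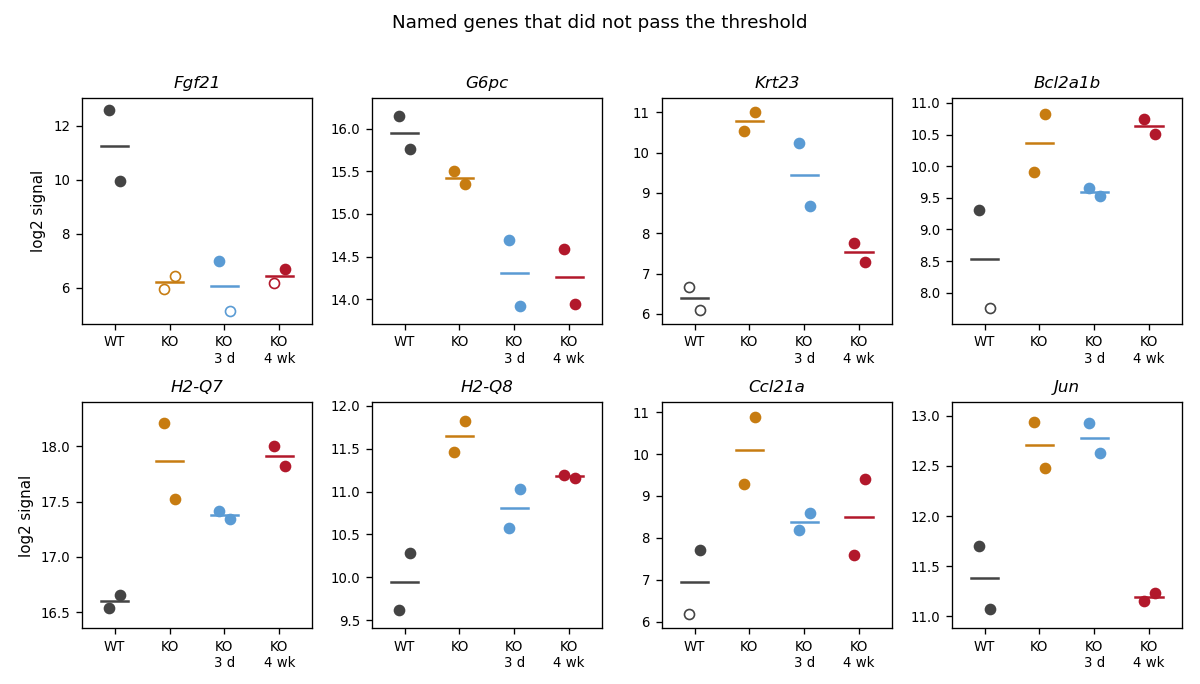
Log2 signal (y axis) on each array of the 4 groups (x axis) for 8 named genes that did not pass between 4 weeks and WT, with open points for arrays that did not detect the probe and bars for means of 2 arrays. Krt23 after 4 weeks lies between WT and untreated KO, and the WT and 4-week points of Ccl21a and Jun overlap.

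Krt23, a keratin induced in injured bile duct epithelium, had 6.67 and 6.10 log2 on the WT arrays, not detected, and 7.76 and 7.29 after 4 weeks, both detected. Its mean was nominally at least 2.18-fold above WT and did not pass (adjusted p = 0.30, limma), while untreated KO stood at 10.53 and 11.01. The 4-week spots were at 3.16 and 3.20 times their noise, just above the cut of 3. Over the alternatives the difference of Krt23 from WT ran from 0.22 to 1.43 log2. The cholangiocyte list therefore had 2 tested members, Wfdc2 and Krt23, of which Wfdc2 passed upward. In the direct comparison of 4 weeks with untreated KO, Krt23 differed by -3.24 ± 0.55 (SE) and Wfdc2 by 0.68 ± 0.44, and neither passed (adjusted p = 0.18 and 0.74, limma).

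No named gene of immune cells or antigen presentation passed, and their differences went both ways. Bcl2a1b, an anti-apoptotic BCL2 relative of leukocytes with near-identical copies, had 9.31 and 7.76 log2 in WT and 10.74 and 10.51 after 4 weeks (2.09 ± 0.55, SE, adjusted p = 0.11, limma). H2-Q7, a non-classical class I histocompatibility gene, had 16.54 and 16.66 in WT and 18.00 and 17.82 after 4 weeks (1.32 ± 0.27, adjusted p = 0.070), and its relative H2-Q8 had 9.62 and 10.28 against 11.19 and 11.16 (1.22 ± 0.31, adjusted p = 0.10). For these 3 genes both 4-week arrays lay above both WT arrays, as they did for 33.5% of all described probes. The probes may also measure close paralogs. Untreated KO had 9.90 and 10.83 for Bcl2a1b, 18.21 and 17.52 for H2-Q7 and 11.46 and 11.83 for H2-Q8. The lymphoid chemokine Ccl21a had 6.17 and 7.72 in WT and 7.58 and 9.40 after 4 weeks, with overlapping groups. Ccl19, which acts on the same receptor, had 8.75 and 8.91 in WT against 8.45 and 8.56, a difference of -0.32 that came to 0.25 with arrays scaled to the same median. The inflammation list had 3 tested members and the antigen presentation list 2, and none of the 5 passed upward or downward, against 2.27% of all tested probes.

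Lgals1, a galectin of stromal cells and macrophages, had 11.99 and 9.79 log2 on the WT arrays and 13.27 and 12.26 after 4 weeks. Grap, an adaptor of lymphocyte signalling, had 8.15 and 7.94 against 9.87 and 10.002. Neither passed (adjusted p = 0.24 and 0.099, limma). Tlr7, the endosomal sensor of single-stranded RNA, was chosen after its values were seen and was detected on both 4-week arrays (7.42 and 7.85) and on neither WT array (7.25 and 5.19), with the nearest arrays of the groups 0.17 log2 apart. Lst1, a leukocyte protein of the histocompatibility locus also chosen after its values were seen, had 10.61 and 10.10 in WT and 9.59 and 9.49 after 4 weeks (adjusted p = 0.25). Hba-a1, a haemoglobin chain of red blood cells, had 19.04 and 16.17 in WT and 15.43 on both 4-week arrays. WT replicate 1 thus stood 2.87 log2 above replicate 2 for this gene. Its difference was -0.74 without WT replicate 1 and -3.60 without WT replicate 2, where it passed (adjusted p = 0.014, limma), and the part of blood in the tissue in the other results was not tested.

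Transcription factors of the hepatocyte gave smaller differences. Cebpb, a bZIP factor of the acute phase and of gluconeogenesis, was read by a pair of probes. Probe 450590 had 15.51 and 16.20 log2 in WT and 14.99 and 15.05 after 4 weeks, and probe 640455 had 13.02 and 13.60 against 12.69 and 12.58. Both gave lower values after 4 weeks without passing (-0.84 ± 0.27 and -0.67 ± 0.25, SE, adjusted p = 0.16 and 0.20, limma), and the second came to 0.01 with arrays scaled to the same median. Stat5b, the growth hormone effector that maintains male-type liver expression, had 11.89 and 11.05 in WT and 11.09 and 11.12 after 4 weeks, with overlapping groups. Its relative Stat5a, chosen after its values were seen, had 10.80 and 9.32 in WT and 9.50 and 9.20 after 4 weeks. The differences of both (-0.37 and -0.71) came to 0.33 and 0.02 with arrays scaled to the same median. Jun, an immediate early factor chosen after its values were seen, had 11.70 and 11.07 in WT and 11.16 and 11.23 after 4 weeks, so the 4-week arrays lay within the WT range, and its difference of -0.19 came to 0.51 under the same scaling. Untreated KO had 12.94 and 12.48 and the 3-day arrays 12.93 and 12.63, and the differences of 4 weeks from these groups (-1.52 ± 0.29 and -1.59 ± 0.29, SE) did not pass either (adjusted p = 0.23 and 0.39, limma).

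Other named genes with large differences did not pass. Among those with higher means, Nupr1l, a relative of the stress protein Nupr1, came nearest (6.61 and 5.62 log2 in WT, 8.01 and 7.92 after 4 weeks, adjusted p = 0.057, limma). Others were the tRNA methyltransferase subunit Trmt61a, the polarity gene Llgl1, the secreted Wnt inhibitor Notum, Ghdc and Dcaf12l1, whose WT arrays differed from each other by 0.99 to 2.70 log2. Each of these 5 had a difference between 1.69 and 2.06 and an adjusted p of 0.18 to 0.33 (limma), but 4 of them turned on which WT array was used. Without WT replicate 1 or without replicate 2, Dcaf12l1 differed by 0.34 or 3.04, Notum by 0.43 or 2.98, Llgl1 by 0.47 or 2.95 and Trmt61a by 1.18 or 2.84. Notum and Dcaf12l1 passed without WT replicate 2 (adjusted p = 0.015 and 0.014, limma), and Nupr1l passed without either WT array (0.029 and 0.032). Among those with lower means, Teddm1a had 9.09 and 9.03 in WT and 8.07 and 8.12 after 4 weeks (adjusted p = 0.053, limma). The dipeptidyl peptidase Dpp9 had 12.09 and 12.35 against 11.35 and 11.32 (0.099), and Tcim, a regulator of Wnt signalling, had 11.44 and 10.97 against 9.85 and 9.94 (0.10). Tcp10b had 14.10 and 11.95 in WT and 10.43 and 11.57 after 4 weeks, a gap of 0.38 between the nearest arrays. Its difference was -0.95 without WT replicate 1 and -3.11 without WT replicate 2, where it passed (adjusted p = 0.035, limma).

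Some genes were named after their values were seen, for their roles. Slc47a1, an exporter of organic cations at the canalicular membrane, had 12.84 and 12.65 log2 in WT and 13.83 and 13.66 after 4 weeks, a difference of 1.00 ± 0.20 (SE) that did not pass (adjusted p = 0.067, limma). Pdxp, a phosphatase of pyridoxal phosphate, had 6.28 and 5.71 in WT, not detected, and 7.34 and 7.71 after 4 weeks, both detected (adjusted p = 0.062). The Golgi adaptor Gga1 had 10.85 and 10.72 in WT and 10.04 and 9.87 after 4 weeks (adjusted p = 0.11). Gpbar1, the membrane receptor for bile acids, was detected on 1 array of each group (5.11 and 7.65 log2 in WT, 7.24 and 6.57 after 4 weeks) and is not among the described probes. Its difference of 0.53 came to -0.75 without WT replicate 1.

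**Figure D4:**
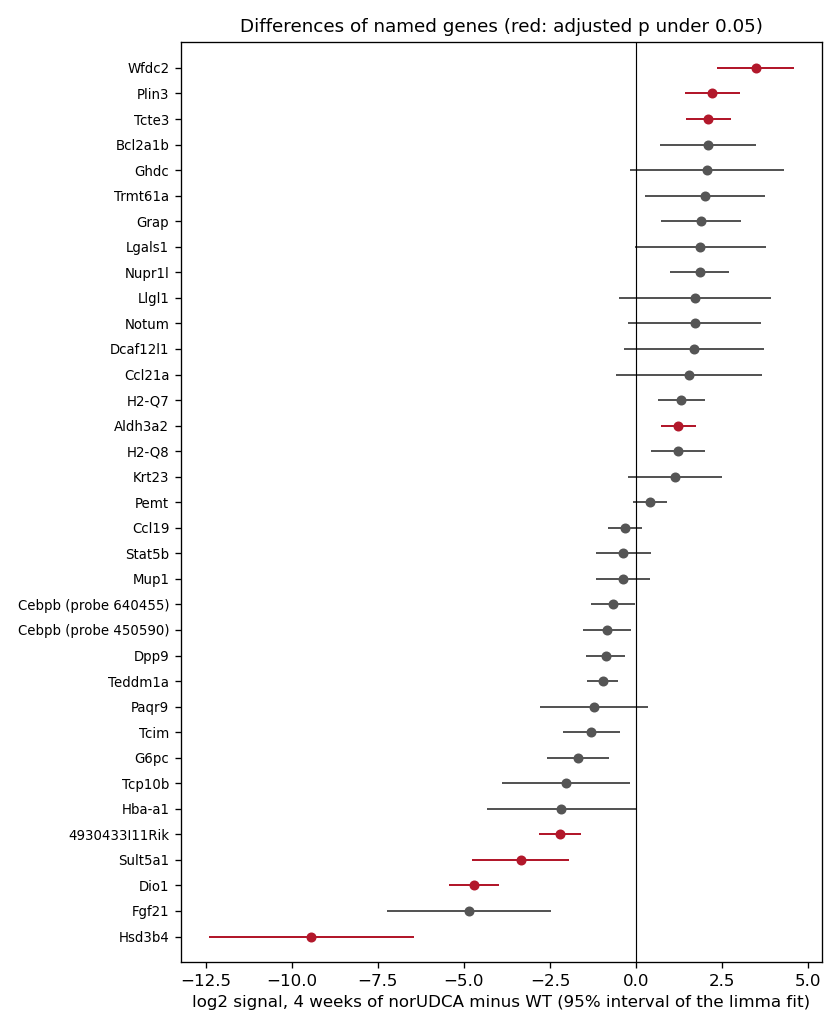
Difference in log2 signal between 4 weeks of norUDCA and WT (x axis) with its 95% interval from the limma fit, for the named genes with the largest differences and those on a gene list (y axis); red marks an adjusted p under 0.05. The intervals of Wfdc2, Plin3, Tcte3 and Aldh3a2 lie above 0 in red, and those of Hsd3b4, Dio1, Sult5a1 and 4930433I11Rik below 0.

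The remaining 90 described named probes had differences from -0.80 to 1.70 log2 and adjusted p-values of 0.105 or more (limma), with 52 higher and 38 lower, and 59 of them lay within 0.5 log2 of WT. Of all 132 described named probes, 78 had arrays that did not overlap between the groups (59.1%), 47 with higher and 31 with lower values after 4 weeks. This was near the 57.1% of all described probes (33.5% higher and 23.6% lower) and the 53.0% of all tested probes. An unadjusted p under 0.05 was reached by 39 of the 132 (29.5%), against 21.2% of all tested probes, which include probes that are not described. In a limma fit of the described probes alone, 3478 of 13715 reached it.

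Of 610 genes on 20 lists of liver pathways and cell types, 18 had a named probe, all of which were tested. They fell on 12 lists, and 6 of the 18 genes passed: Wfdc2, Plin3 and Aldh3a2 upward and Dio1, Hsd3b4 and Sult5a1 downward. Of all tested probes 2.27% passed. The lists were chosen with earlier results of these data known, so the count of 6 is a description and no evidence about the lists. The median over these 19 probes was -0.32 log2, against 0.09 over all tested probes. The lists of lipid droplet genes (Plin3), thyroid hormone genes (Dio1) and glucose metabolism (G6pc) had 1 tested member each, so a count on them describes that gene alone. The list of steroid hormone and sex-biased liver genes had 3: Hsd3b4 fell, and Mup1 and Stat5b did not pass. The lists of bile acid synthesis, bile transporters, fibrosis, macrophages, endothelium, cell cycle and stress had no named probe.

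Whether the distance from WT after 4 weeks differed from that of the other knockout groups was tested by comparing these groups directly, since WT then cancels. Against untreated KO, 8 probes passed (0.0478% of those tested), 5 higher (0.0299%) and 3 lower (0.0179%), and none of them is named. An unadjusted p under 0.05 was reached by 1464 (8.75%). The named gene nearest to the threshold was Dio1, which stood at 12.13 and 12.75 log2 in KO (-2.55 ± 0.29, SE, adjusted p = 0.091, limma). Among the 8, the probe of mCG145791 had 18.13 and 18.00 in WT, 15.89 and 15.28 in KO and 20.00 and 19.83 after 4 weeks, so that it lay below WT without treatment and above it with treatment. That of mCG5986.2 had the same order, with 12.01 and 12.07, 10.35 and 10.13, and 13.94 and 13.93. The probe of mCG9751.2 had 12.80 and 12.37 in WT, 12.33 and 12.25 in KO and 9.34 and 9.09 after 4 weeks. That of AK019791.1 was detected on both 4-week arrays (7.70 and 8.03) and on no other array. For mCG4926.1 (WT 11.47 and 11.35, KO 7.97 and 8.02) the 4-week arrays lay between these groups, at 10.50 and 10.26. So did those for AK028310.1, at 9.59 and 9.79 (WT 5.59 and 5.51, KO 12.32 and 12.11). For mCG115420 they lay above WT, at 12.22 and 11.73 (WT 10.85 and 10.86, KO 6.88 and 7.72). For mCG114037.1 they lay below WT and were not detected, at 5.62 and 5.69 (WT 7.40 and 8.39, KO 10.67 and 10.58). The count of 8 became 0 without any one of the 6 knockout arrays.

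Against 3 days of norUDCA, limma called 0 of the tested probes (0.0%), with 1499 at an unadjusted p under 0.05 (8.96%). Median scaling called 11, and trend and robust moderation 69. Of the 8 named genes that passed against WT, the largest difference between 4 weeks and 3 days was that of Sult5a1 (-1.71 ± 0.56, SE, adjusted p = 0.47). Dio1 differed by -0.06 ± 0.29 between these groups, with 10.03 and 9.87 log2 after 3 days and a 95% interval from -0.76 to 0.64. That of Plin3, with 12.93 and 12.85 after 3 days, ran from -0.47 to 1.07.

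Detection was uneven between the groups. Both 4-week arrays and neither WT array detected 1390 of the described probes, and both WT arrays and neither 4-week array detected 79. By its definition the first class can hardly hold falls and the second can hardly hold rises, so their calls are a description: 146 rises and 0 falls in the first, 0 rises and 19 falls in the second, of 257 rises and 102 falls among described probes. All 4 arrays detected 9724 probes, whose median difference was -0.01 log2, with 83 rises and 72 falls. The 12 named genes of the first class, some of them named here only for this detection and after it was seen, were Ghdc, Krt23, Lgals7, Lhx2, Pdxp, Pou3f3, Ramp3, Tcte3, Tlr7, Vmn1r218, Wars2 and Wfdc2, of which Tcte3 and Wfdc2 passed, and Hsd3b4 was the only named gene of the second.

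Rises and falls were counted by signal level as well. With the described probes cut into 4 equal classes by mean signal, the dimmest lay at 5.73 to 8.76 log2. In it 155 probes rose and 22 fell, and the median difference was 0.81 log2. In the brightest class, from 12.16 log2 upward, 44 rose and 35 fell, with a median of 0.00. A dim probe can be described through the single group in which it was detected. Over all levels, both 4-week arrays and no WT array detected 1390 described probes, and both WT arrays and no 4-week array detected 79. The WT arrays were also the dimmer ones. The part of the choice of probes and of the dimmer WT arrays in the imbalance of the dimmest class was not tested. Plin3 and Aldh3a2 were detected on all 8 arrays, and Wfdc2 and Tcte3 on neither WT array.

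**Figure D5:**
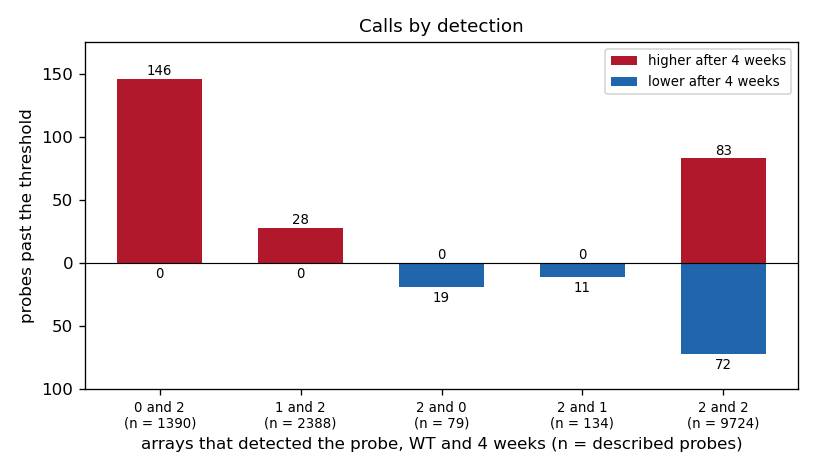
Number of described probes past an adjusted p of 0.05 (limma), higher (red, upward) or lower (blue, downward) after 4 weeks than in WT (y axis), by how many of the 2 WT arrays and of the 2 arrays after 4 weeks detected the probe (x axis). Rises number 146 where no WT array detected the probe, and 83 rises stand beside 72 falls where all 4 arrays did.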

How the data were processed

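Liver RNA of 8 samples was measured on 1-colour arrays. The deposited scanner files hold, per the file headers, a signal (intensity on a linear scale, blank spots at a median of 0), a signal over noise (a score with no fixed range) and flags. The deposited series table holds the assay-normalized intensity, equal to that column of the scanner files within 0.06 for 100.0% of values. The software behind these files is not stated in the labels.

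Gene probes flagged at 5000 or above anywhere among the 8 arrays (4153 of 33012) were dropped from the signal, and the log2 values of the others were quantile-normalized. A probe was tested when 2 or more of the 8 arrays detected it (signal over noise of at least 3). A single limma 3.58.1 fit (R 4.3.3, lmFit and eBayes) held 4 group means over 8 arrays (degrees of freedom: 4 residual, 1.96 prior). Tests were two-sided, with Benjamini-Hochberg adjustment over all tested probes and a threshold of 0.05. The fit was also run on simulated data with independent noise, in which no group of arrays was dimmer. That run therefore says nothing about the dimmer WT arrays. Probes were named through RefSeq accessions (311 of 517 matched, assembly GRCm38.p6). The Celera identifiers (27930) and GenBank accessions (4565) were not named.

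A fold of "at least" divides the brighter group's mean by a floor for the dimmer group. In this floor each array takes the probe's signal or, where larger, the array's lowest signal among detected probes. Such a bound is nominal, since the floor can lie within the noise of the dimmer group's spots. Named are genes past the threshold, the 12 largest differences each way among described named probes without overlap, list members, the 6 brightest, and of unnamed probes the 3 largest rises and falls. Members and lists were chosen with earlier results of these data known. Genes outside this rule are said to be chosen after their values were seen. The alternatives changed the normalization, the filters, the arrays used and the moderation of the variance.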

Additional observations from a re-analysis of the deposited data

Results flagged for a closer look

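The positive control spots, which enter no comparison, were dimmer on the WT arrays than on all 6 knockout arrays, treated or not. The WT medians were 1691 and 2062 over 129 spots per array, and those of untreated KO were 7913 and 6653, of 3 days 6634 and 6104, and of 4 weeks 7003 and 6269. The lower 4-week median was 3.04 times the higher WT median. The spots were singled out as data that no comparison used.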

How the results depend on the processing

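Of 50 gene results over up to 21 alternatives (1025 values), 869 stayed on the same side of the threshold with the same direction, 96 lost the call, 51 gained it and 9 changed sign. Arrays scaled to the same median (all-probe median difference 0.61 instead of 0.09) turned Jun (0.51), Ccl19 (0.25), Stat5b (0.33), probe 640455 of Cebpb (0.011) and Stat5a (0.023). Without single arrays Gpbar1 ran from -0.75 to 1.80, Jun from -0.51 to 0.12, Stat5b from -0.79 to 0.047 and Stat5a from -1.45 to 0.031, each with its sign turned without WT replicate 1. The cause was not tested.

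The 379 probes past the threshold between 4 weeks and WT became 982 with arrays scaled to the same median (847 higher and 135 lower, 86.3% higher instead of 70.2%), 214 with cyclic loess (128 and 86, 59.8%), 801 over probes detected on all 8 arrays (416 and 385, 51.9%), 40 with no filter on dim probes, 734 adjusted over the described probes, 584 at signal over noise of 5, 0 in the fit of the 4 arrays compared, 1251 with trend and robust eBayes and 237 with array weights. Deviations of same-numbered samples correlated at -0.04 to 0.03, so no shared deviation was seen. The labels do not say whether the replicate numbers pair the samples, and these correlations cannot settle it. With the replicate number as a block (replicate block) the count was 68, of which 66 were among the 379. Without single arrays it ran from 0 to 1265: 0 without either 4-week array, 38 without either 3-day array, 425 without either KO array, 261 without WT replicate 1 (80.5% higher) and 1265 without WT replicate 2 (79.8% higher). The cause was not tested, and the lone array of a group is then assumed to vary like the others. The 305 probes from the deposited intensity, 538 with an offset of 50 and 387 with flagged probes kept were within 1.5 times the count.

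Against untreated KO the 8 probes became 43 with median scaling, 2 from the deposited intensity, 26 with the offset, 59 over probes detected on all arrays, 0 with no filter, 139 with trend and robust eBayes, 20 with array weights, 0 with the replicate block and 0 to 14 without single arrays. Against 3 days the 0 probes became 11, 16 and 69 with median scaling, detection on all arrays, and trend and robust eBayes. Signal over background limits dim probes: on the WT arrays 33.3% and 41.4% of gene probes were detected.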
